A study of Mus musculus with 24 samples.

Results

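Whole brains of Acads-/- mice fed a high-fat (HF) diet were compared with whole brains of Acads+/+ mice fed the same diet. The comparison took in 6 arrays, 3 from each genotype, of the 12 brain arrays and 24 arrays of the study, chosen by their labels for tissue, genotype and diet. Acads-/- mice were of the substrain BALB/cByJ, which carries a spontaneous deletion in Acads, and Acads+/+ mice were of the substrain BALB/cByKZ. The substrains have been bred apart, so the Acads deletion and the rest of the strain background cannot be told apart in any value given here. All mice were male, 12 weeks old, and ate the HF diet for 2 days. A further 3 Acads-/- and 3 Acads+/+ mice that ate a low-fat (LF) diet gave the levels set beside the HF values. The arrays gave 1 signal per probe, shown here as log2 signal, where a difference of 1 is a doubling.

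Acads encodes short-chain acyl-CoA dehydrogenase, the mitochondrial enzyme that opens the last rounds of fatty acid beta-oxidation by acting on butyryl-CoA. The electrons it removes pass through electron transfer flavoprotein to the respiratory chain, whose complexes pump protons for ATP synthase, and the acetyl-CoA enters the TCA cycle. The brain burns mostly glucose and, in fasting, ketone bodies, and it oxidizes fatty acids at a low rate, mainly in astrocytes. Hypothalamic neurons read fuel state through AMP-activated protein kinase (AMPK) and malonyl-CoA and set food intake through peptides such as neuropeptide Y, hypocretin and the melanocortins.

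On HF diet the brains of Acads-/- mice held more transcript of 21 of 26 tested subunits of respiratory complex I. The same held for 8 of 11 genes of complex IV with cytochrome c and 8 of 13 ATP synthase genes. It held for 47 of 59 cytosolic and 43 of 62 mitochondrial ribosomal proteins as well. All 5 tested feeding peptides listed here as raising food intake, Npy, Hcrt and Gal among them, were higher. So were 6 of 11 listed as curbing it. The Acads-/- HF brains held less transcript of 13 of 20 fatty acid synthesis genes, of 7 of 10 GABA receptor subunits and of 8 of 15 subunits of the vacuolar proton pump. Of 16506 probes tested in brain, 5758 (34.9%) were called, which required an adjusted p under 0.05 by limma and a change of at least 1.6-fold. The t-test that the study's methods name called 69 probes after Benjamini-Hochberg adjustment and 4706 without adjustment. Among 8741 tested genes with a name, 1315 (15%) were higher and 1804 (20.6%) were lower in Acads-/- HF mice, and the median over all of them was -0.22. In 4756 of these genes (54.4%) the 3 Acads-/- HF values did not overlap the 3 Acads+/+ HF values. These shares are the background for every count below.

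The 3 Acads+/+ HF arrays stood apart from the other 9 brain arrays. The arrays of each group are called A, B and C in the order in which their values are given, letters that only name them. On the first principal component, which took 49.2% of the variance, they lay at -46.3, -108 and -78.7, while the other arrays lay between 18.6 and 33.8. Set against the mean of the 6 LF arrays, the 1315 higher genes had medians of 0.20, 0.11 and 0.02 on the Acads-/- HF arrays and of -0.71, -1.51 and -1.11 on the Acads+/+ HF arrays. The 1804 lower genes had medians of -0.17, -0.07 and -0.07 on the Acads-/- HF arrays and of 0.62, 1.15 and 0.87 on the Acads+/+ HF arrays. So the Acads-/- HF arrays lay near LF levels and the Acads+/+ HF arrays lay away from them, in both directions. No value of the comparison can be had without these 3 arrays; with any 1 of them left out, between 4271 and 6912 probes were called. In whole tissue, fewer cells of a type and less RNA per cell cannot be told apart.

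The difference of the genotype effect between diets was tested itself. It was called for 3752 of 16506 probes (22.7%) and for 2096 of the 8741 named genes (24%), 924 of them upward and 1172 downward. On LF diet the genotypes differed at 3 probes (0.0182%), with 757 at an unadjusted p under 0.05, and these probes were for Snx18, Clcn4 and Glo1. Of the genes higher on HF diet, 475 of 1315 were also higher in Acads-/- mice on LF diet by sign alone, and the median LF difference was -0.06. Of the genes lower on HF diet, 890 of 1804 were lower by sign on LF diet, with a median of 0.00.

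**Figure D1:**
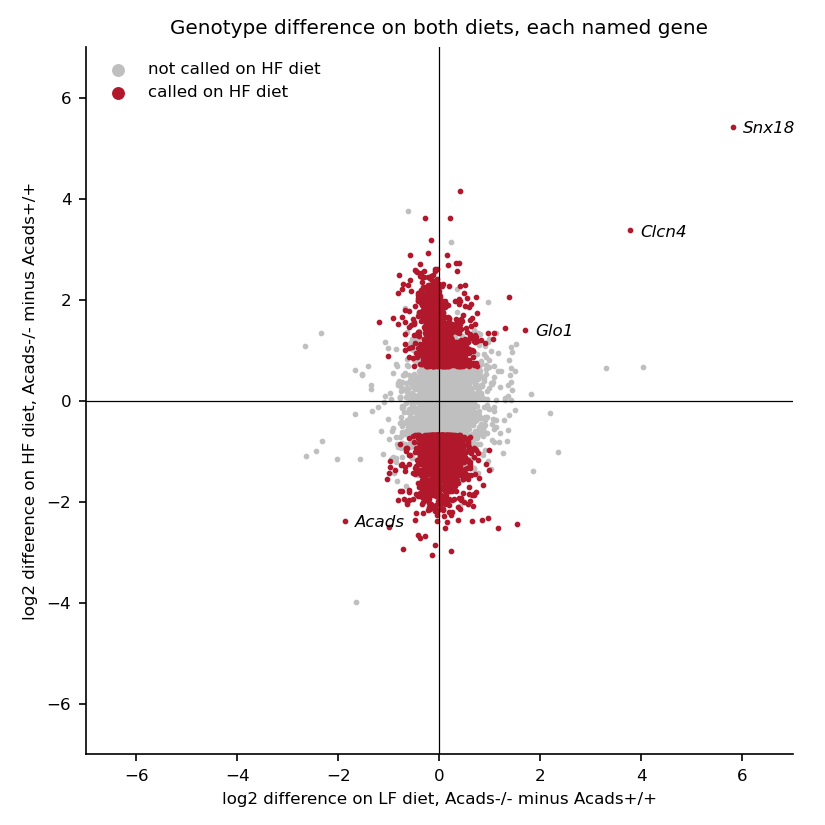
Each point is 1 of 8741 named genes, with the log2 difference Acads-/- minus Acads+/+ on LF diet along the x axis and on HF diet along the y axis; dark red points were called on HF diet. Most called genes spread along the y axis and lie near 0 on the x axis; Snx18, Clcn4, Glo1 and Acads, named in the plot, lie away from 0 on both.

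The differences ran with the genomic span of the gene, the distance from its start to its end. Genes of up to 2 kb were higher in 47.8% and lower in 1.64% of 366 cases, with a median of 0.78. Genes of 20 to 50 kb were higher in 8.45% and lower in 25.6% of 2261 cases, with a median of -0.37, and genes over 200 kb were lower in 35.2% of 401 cases, with a median of -0.59. Higher genes spanned a median of 7.95 kb and lower genes 36.9 kb, against 20.1 kb over all tested genes. Across genes, which are not independent replicates, Spearman's rho between the log2 difference and the span was -0.40 on HF diet and 0.04 on LF diet. The deviation of an array from the mean of the 12 brain arrays rose with span on the Acads+/+ HF arrays (rho of 0.278, 0.415 and 0.427) and fell with it on the other 9 (rho from -0.329 to -0.173). With this trend removed from each array, 2571 of 9025 probes with a span were called, against 3266 with the trend kept, and the median over all of them was -0.05 in place of -0.22. Of these calls 54.8% were higher in Acads-/- HF mice with the trend removed and 41.6% with it kept, beside 50.2% over all called probes. Counts with the trend removed are given below beside the gene groups where they moved by over 1.5 times. The part of RNA quality in the trend was not tested.

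**Figure D2:**
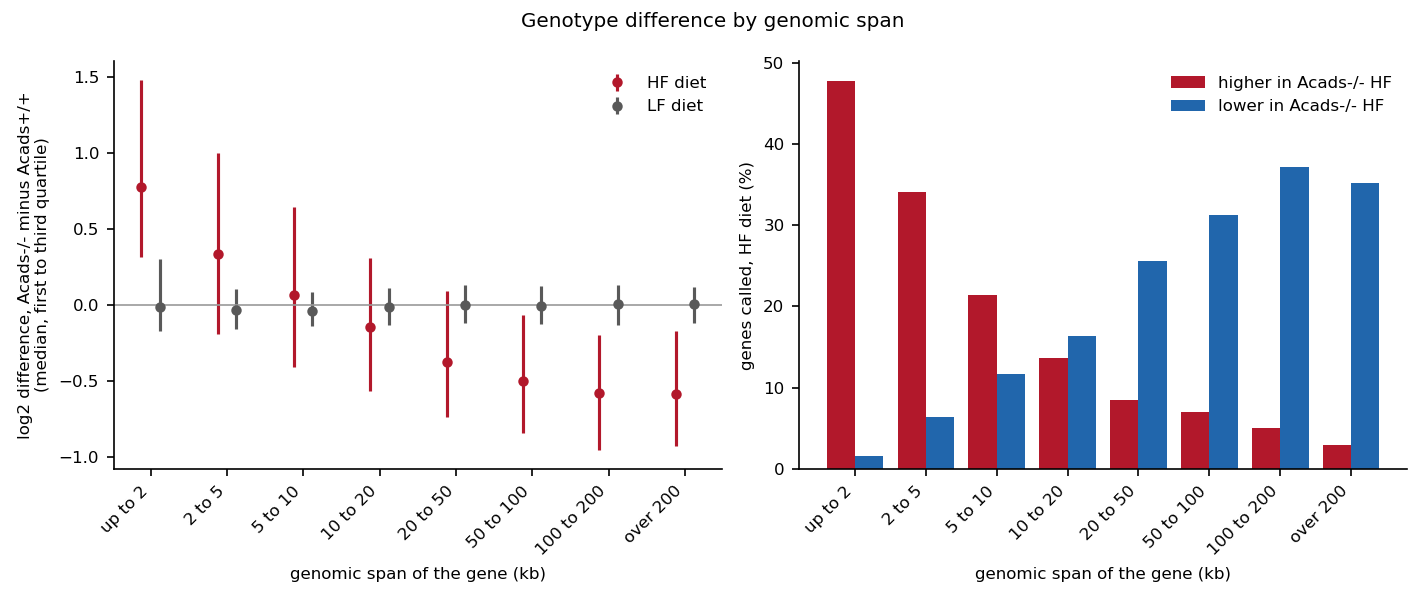
Left, the median and the interquartile range of the log2 difference Acads-/- minus Acads+/+ in 8 bins of genomic span (kb), on HF diet (red) and on LF diet (grey). Right, the percentage of genes in each bin called higher (red) and lower (blue) in Acads-/- HF mice; the HF median falls across the bins, with 0.78 in the shortest and -0.59 in the longest, while the LF medians stay near 0.

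Acads itself checked the genotype labels, though not the diet labels. Its log2 signal was 9.39, 10.02 and 8.90 in Acads-/- HF mice, against 11.92, 11.73 and 11.82 in Acads+/+ HF mice. All 3 Acads-/- values lay below all 3 Acads+/+ values, and the difference was -2.39 ± 0.47 (SE), or 5.23-fold lower, at an adjusted p of 0.0025. On LF diet the difference was -1.87 and was not called, and the effect did not differ between diets by the test (adjusted p = 0.59). In liver of HF mice Acads differed by -1.68 ± 0.78 (SE), which was not called; no liver probe was called in that comparison (0%), with 1118 at an unadjusted p under 0.05. Ppia, the cyclophilin gene used as a reference for RT-qPCR, had 20.54, 20.62 and 20.75 in Acads-/- HF mice, against 20.58, 19.94 and 20.38 in Acads+/+ HF mice, and was not called.

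Glo1, which encodes the glyoxalase that clears methylglyoxal, had 16.68, 16.77 and 16.38 in Acads-/- HF mice, against 15.10, 15.34 and 15.18 in Acads+/+ HF mice. The groups did not overlap, and the difference was 1.40 ± 0.15 (SE, adjusted p = 0.00016). It was as large on LF diet, at 1.70, and 1.05 in liver of HF mice, where it was not called. The sorting nexin gene Snx18 differed by 5.42 and the chloride transporter gene Clcn4 by 3.37. For Glo1, Snx18 and Clcn4 the effect did not differ between diets by the test, with adjusted p of 0.33, 0.23 and 0.62 (limma).

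Apart from the genes called on both diets, the largest differences were spread over many functions. Among the 15 largest increases were Dpm3, which anchors the enzyme that makes dolichol-phosphate-mannose, Nop10, a protein of the H/ACA ribonucleoproteins that modify ribosomal RNA, and Bola2, which takes part in iron-sulfur cluster handling. Bola2 had 16.14, 16.03 and 15.96 in Acads-/- HF mice, against 13.42, 12.99 and 14.08 in Acads+/+ HF mice, 5.83-fold higher (2.54 ± 0.24, SE, adjusted p = 0.00012). The groups were far apart, and its LF values ran from 15.33 to 16.13. The S100 family gave 3 of the 15, S100a5, S100a8 and S100a13, with differences of 2.59, 2.68 and 2.57, and for S100a8 the effect did not differ between diets by the test (adjusted p = 0.13).

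Among the 15 largest decreases were Ago2, the slicer of the RNA-induced silencing complex, Abca1, which exports cholesterol from the cell, and Kpna1, an importin. Abca1 had 10.47, 11.48 and 8.78 in Acads-/- HF mice, against 12.47, 12.86 and 12.57 in Acads+/+ HF mice, 5.23-fold lower (-2.39 ± 0.54, SE, adjusted p = 0.0048). The Acads-/- arrays spread widely and the Acads+/+ arrays did not. Kpna1 had 8.93, 9.95 and 9.75 in Acads-/- HF mice, against 11.44, 12.27 and 12.01 in Acads+/+ HF mice, 5.13-fold lower (-2.36 ± 0.33, SE, adjusted p = 0.00044). Bola2 spans 0.694 kb, while B3galt1, a galactosyltransferase gene among the decreases, spans 557 kb.

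**Figure D3:**
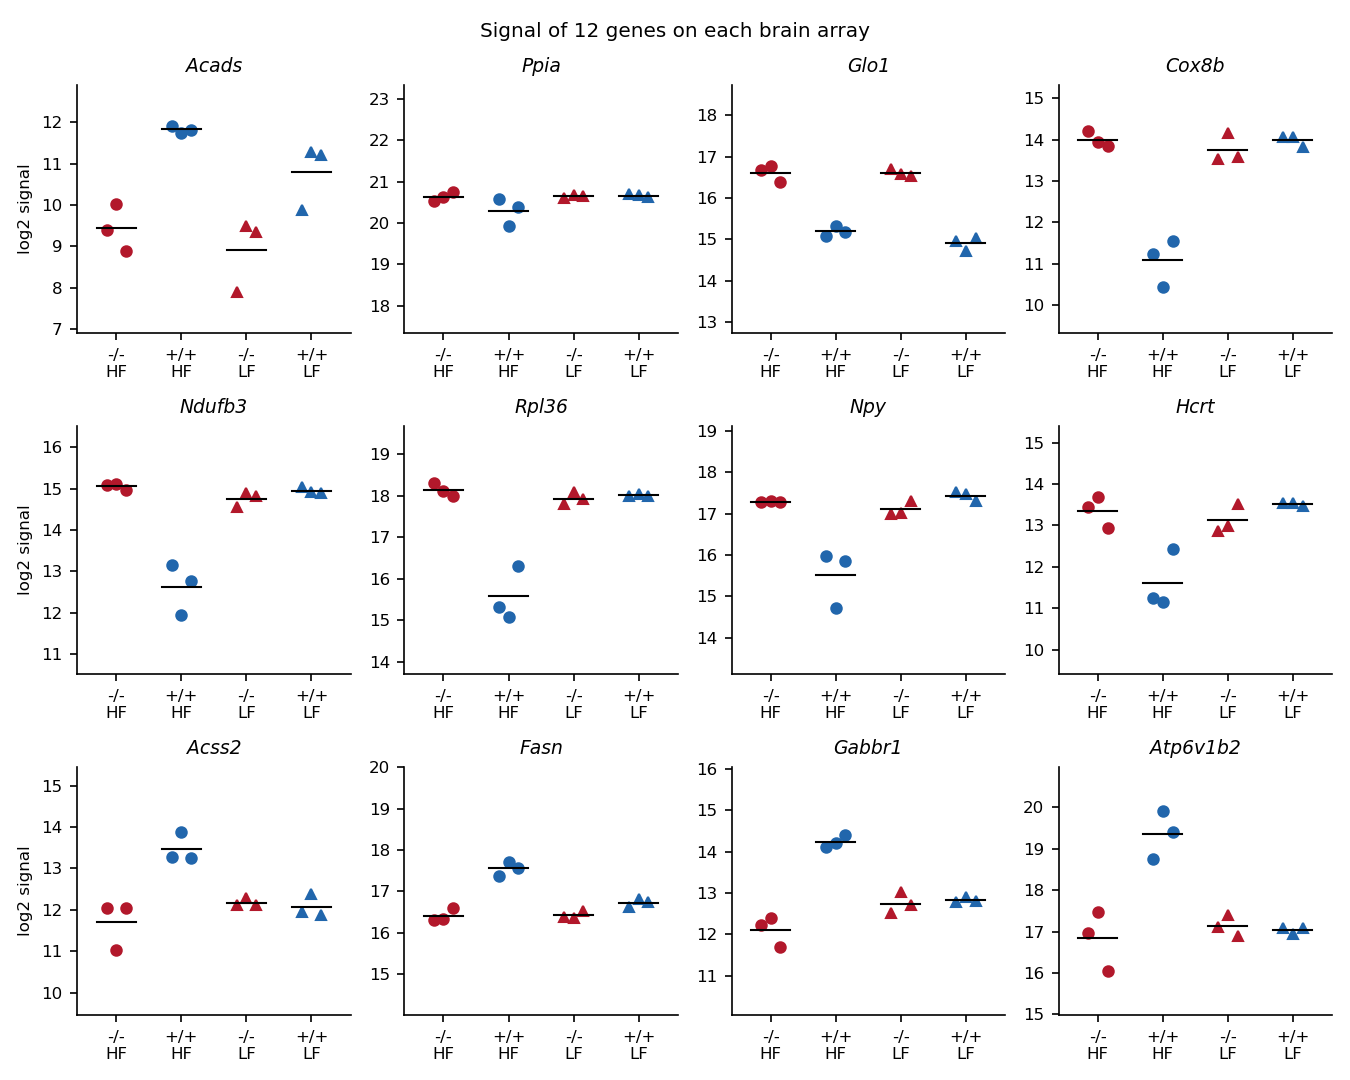
The log2 signal of 12 genes on each of the 12 brain arrays, with Acads-/- in red, Acads+/+ in blue, HF diet as circles, LF diet as triangles and the group mean as a bar; every panel spans 6 log2 units. For Ndufb3, Cox8b, Rpl36 and Npy the Acads+/+ HF arrays lie below the other 3 groups, for Acss2, Gabbr1 and Atp6v1b2 they lie above them, and Acads and Glo1 split by genotype on both diets.

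Oxidation of fatty acids in mitochondria is the pathway of the missing enzyme. Of 21 tested genes, 1 was higher and 4, Acads among them, were lower, and the median was -0.28, close to the -0.22 of all named genes. Hadha, the alpha subunit of the trifunctional protein that handles long chains, had 12.05, 12.15 and 11.71 in Acads-/- HF mice and 12.77, 13.51 and 13.02 in Acads+/+ HF mice, a difference of -1.13 ± 0.19 (SE, adjusted p = 0.0011). The groups did not overlap. Eci1, which moves the double bond of unsaturated chains so that they can be oxidized, went the other way, with 15.65, 15.47 and 15.11 in Acads-/- HF mice and 14.81, 13.76 and 14.32 in Acads+/+ HF mice. Its difference was 1.11 ± 0.24 (SE, adjusted p = 0.0040). Acad9, which helps to assemble complex I, differed by -0.70 and the carnitine acetyltransferase gene Crat by -0.72, both called. Cpt1c, the brain form of carnitine palmitoyltransferase 1, differed by -0.41 and Mlycd, which breaks down malonyl-CoA, by -0.28, and neither was called. With the span trend removed the median of the 21 genes was 0.00, and without array C of Acads-/- HF or array B of Acads+/+ HF 2 of them were lower.

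Peroxisomal oxidation differed little as a group, with 1 of 17 genes higher, 3 lower and a median of -0.08. Abcd3, which carries fatty acids into the peroxisome, had 11.42, 10.14 and 11.36 in Acads-/- HF mice, against 12.63, 13.42 and 13.07 in Acads+/+ HF mice. The difference was -2.07 ± 0.32 (SE, adjusted p = 0.00071), and 1 Acads-/- array lay well below the other 2. Pex11a, whose protein promotes the division of peroxisomes, was 1.30 higher.

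Transcripts of fatty acid synthesis were mostly lower. Of 20 tested genes of synthesis, activation, elongation and desaturation, 13 were lower and none higher, at a median of -0.79, and 17 had groups that did not overlap. Fatty acid synthase, Fasn, had 16.31, 16.33 and 16.59 in Acads-/- HF mice, against 17.38, 17.72 and 17.57 in Acads+/+ HF mice, a difference of -1.15 ± 0.14 (SE, adjusted p = 0.00027). Both LF groups lay between 16.35 and 16.83, so the Acads+/+ HF mice stood highest. Acss2, which makes acetyl-CoA from acetate, had 12.05, 11.04 and 12.05 in Acads-/- HF mice and 13.27, 13.88 and 13.25 in Acads+/+ HF mice, a difference of -1.75 ± 0.28 (SE, adjusted p = 0.00084). Acaca, the acetyl-CoA carboxylase that supplies malonyl-CoA, was 0.96 lower on the log2 scale, and the delta-5 desaturase gene Fads1 was 1.32 lower. Elovl7 differed by 0.72 in the other direction and was not called. With arrays scaled by their medians in place of quantile normalization 9 of the 20 genes were lower, and with the span trend removed 8 were, at a median of -0.46.

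Cholesterol synthesis and uptake had 6 of 14 genes lower and none higher, at a median of -0.50. Hmgcs1, which condenses acetoacetyl-CoA with acetyl-CoA at the start of the pathway, had 17.74, 17.86 and 17.98 in Acads-/- HF mice, against 18.94, 18.98 and 19.15 in Acads+/+ HF mice. The groups did not overlap, and the difference was -1.16 ± 0.12 (SE, adjusted p = 0.00015). With median scaling it was -0.36 and was not called. Dhcr7, Cyp51, Msmo1 and Sqle, later enzymes of the pathway, were 0.72 to 0.97 lower. Of the 14 genes 2 were lower with median scaling, and 4 were with the span trend removed or without array C of Acads-/- HF.

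The promoters of the lipid genes were read from RefSeq (GRCm38.p6), 250 bases before to 50 after the start. The motif CCAAT, read on both strands, was in 64.7% of the 17 promoters found for the fatty acid synthesis list, in 38.7% of promoters of all tested genes and in 37.9% of the promoters of the table. Genes called higher held it in 39.7% and genes called lower in 36.2%. CCAAT was 1 of several motifs searched in this list. The GC box GGGCGG was in 70.6% of its promoters (62.3% over tested genes) and the E box CACGTG in 11.8% (10.2%). The CRE TGACGTCA was in 5.88% (3.19%), its core TGACG in 17.6% (31.0%) and the ETS letters CCGGAAG in 5.88% (17.0%). The TATA box TATAAA (8.13%), the NRF1 letters GCATGCGC (5.28%) and the YY1 letters AAGATGGC (4.58%) were in 0%. The 100 bases before the start of Fasn (chr11:120824548-120824647, minus strand), Acss2 (chr2:155517943-155518042, plus strand) and Elovl5 (chr9:77917265-77917364, plus strand), all lower, and of the elongase gene Elovl1 (chr4:118427993-118428092, plus strand), which was not called at 0.18, show the motif in capitals, as CCAAT or as ATTGG on the other strand. A match describes the letters and is not a measured site.
Fasn: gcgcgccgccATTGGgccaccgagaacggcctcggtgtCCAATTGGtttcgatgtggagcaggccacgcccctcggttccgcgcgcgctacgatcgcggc
Acss2: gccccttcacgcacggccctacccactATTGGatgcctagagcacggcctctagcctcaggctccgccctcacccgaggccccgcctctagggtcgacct
Elovl5: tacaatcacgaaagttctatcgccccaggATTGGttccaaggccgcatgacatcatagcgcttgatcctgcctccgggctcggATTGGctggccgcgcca
Elovl1: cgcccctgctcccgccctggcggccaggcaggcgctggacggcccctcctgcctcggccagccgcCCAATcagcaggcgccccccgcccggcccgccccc

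Called genes of glucose and ketone body use were mostly lower. Slc2a1, the glucose transporter of the blood-brain barrier and of glia, had 11.73, 11.57 and 10.71 in Acads-/- HF mice, against 12.65, 13.39 and 12.96 in Acads+/+ HF mice, a difference of -1.66 ± 0.35 (SE, adjusted p = 0.0037). Oxct1, which activates ketone bodies for oxidation, had 14.50, 14.42 and 14.20 in Acads-/- HF mice, against 15.13, 15.57 and 15.12 in Acads+/+ HF mice. The groups did not overlap and differed by -0.90 ± 0.21 (SE, adjusted p = 0.0053). Bdh2, a hydroxybutyrate dehydrogenase of the cytosol, was 1.39 higher. Of 14 glycolysis genes 6 were lower and none higher (median -0.41), led in size by the muscle-type phosphofructokinase gene Pfkm with -1.87 and with Pgk1, Eno2 and Pgam1 between -1.24 and -1.17. With median scaling 2 of the 14 were lower.

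The TCA cycle and pyruvate dehydrogenase had 7 of 21 genes lower and none higher, at a median of -0.54, beside 20.6% lower over all named genes. Citrate synthase, Cs, had 17.85, 18.21 and 18.03 in Acads-/- HF mice, against 19.07, 19.47 and 19.30 in Acads+/+ HF mice, a difference of -1.24 ± 0.15 (SE, adjusted p = 0.00022). All Acads+/+ HF values lay above every LF value, which ran from 17.86 to 18.07. Idh1, Dlst and Dld were 1.13 to 1.29 lower. With median scaling 3 of the 21 were lower and Cs, at -0.47, was not called, and with the span trend removed 7 were lower at a median of -0.13.

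Of 26 tested subunits of complex I, which takes electrons from NADH, 21 were higher and 1 was lower, at a median of 1.42, and in 24 the groups did not overlap. Ndufb3, an accessory subunit of the membrane arm, had 15.08, 15.11 and 14.97 in Acads-/- HF mice, against 13.16, 11.94 and 12.78 in Acads+/+ HF mice. The difference was 2.43 ± 0.25 (SE), or 5.39-fold, at an adjusted p of 0.00015, and the LF values of both genotypes lay between 14.56 and 15.03. Ndufa1, Ndufa2, Ndufa3 and Ndufb7, small accessory subunits as well, were 2.07 to 2.19 higher. The exception was Ndufs1, the largest subunit and a carrier of iron-sulfur clusters, with 17.82, 17.92 and 17.50 in Acads-/- HF mice and 18.44, 18.92 and 18.67 in Acads+/+ HF mice. It was 0.93 lower (SE 0.17, adjusted p = 0.0015), but at -0.23 with median scaling and -0.57 with the span trend removed it was not called.

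The list medians of complex I against the LF mean were 0.17, 0.16 and 0.01 on the Acads-/- HF arrays, against -0.83, -1.99 and -1.09 on the Acads+/+ HF arrays. Array B of the Acads+/+ HF mice, at -1.99, was also farthest out on the first principal component. Higher genes of complex I spanned a median of 7.69 kb, and Ndufs1 spans 33.2 kb. Of the 26 subunits 21 were higher with the span trend removed as well, at a median of 1.21.

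Complex II, succinate dehydrogenase, had 4 tested genes, of which 1 was lower. Sdha, its flavoprotein, had 16.45, 16.48 and 16.72 in Acads-/- HF mice, against 17.68, 18.51 and 17.81 in Acads+/+ HF mice, a difference of -1.45 ± 0.21 (SE, adjusted p = 0.00049). Sdhc and Sdhd, the membrane anchors, differed by 0.28 and 0.31 and were not called. In complex III, 3 of 8 genes were higher and 1 lower. Uqcr10, a small subunit, had 18.88, 18.74 and 18.44 in Acads-/- HF mice and 16.46, 15.91 and 16.94 in Acads+/+ HF mice, a difference of 2.25 ± 0.23 (SE, adjusted p = 0.00015). Uqcr11 and Uqcrq, small subunits too, were 2.29 and 1.64 higher. Uqcrc1, a large core subunit, was 0.74 lower, which was not called with median scaling, without array C of Acads-/- HF or without array A of Acads+/+ HF.

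Complex IV, cytochrome c oxidase, and its carrier cytochrome c had 8 of 11 genes higher and none lower, at a median of 1.49. Cox8b, an isoform best known from heart and muscle, had 14.21, 13.94 and 13.84 in Acads-/- HF mice, against 11.23, 10.45 and 11.56 in Acads+/+ HF mice, which was 7.53-fold (2.91 ± 0.27, SE, adjusted p = 0.00012). Cox7a1, the heart and muscle isoform of its subunit, had 13.51, 13.59 and 13.10 in Acads-/- HF mice, against 10.67, 10.72 and 11.14 in Acads+/+ HF mice. In neither gene did the groups overlap, and the LF values of both lay near the Acads-/- HF values. Cox7a1 was 2.56 higher. Of the 3 tested skeletal muscle markers, Acta1 was 1.86 higher, and Ckm and Tnni2 differed by 0.15 and 1.22 without a call. The summed signal of all 7 muscle markers with a probe, untested ones included, ran from 38487 to 40499 on the Acads-/- HF arrays. On the Acads+/+ HF arrays it ran from 9976 to 19641, and its part in the result was not tested. Subunits that all tissues use moved too, among them Cox7c (1.79), Cox6b1 (1.75) and Cox5b (1.49).

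ATP synthase had 8 of 13 genes higher and 1 lower, at a median of 0.81. Atp5e, the smallest subunit of the soluble part, had 18.08, 18.07 and 17.95 in Acads-/- HF mice, against 15.71, 15.28 and 16.58 in Acads+/+ HF mice, a difference of 2.18 ± 0.27 (SE, adjusted p = 0.00026). Atp5b, the catalytic beta subunit, had 19.42, 19.49 and 19.53 in Acads-/- HF mice, against 20.12, 20.45 and 20.31 in Acads+/+ HF mice. Its difference of -0.82 ± 0.17 (SE, adjusted p = 0.0036) was -0.18 with median scaling, where it was not called. The list median on the Acads+/+ HF arrays ran from -0.22 to -1.72 against the LF mean, so the 3 arrays also differed among themselves.

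The vacuolar proton pump, which acidifies lysosomes and synaptic vesicles, had 8 of 15 genes lower and 3 higher, at a median of -0.70. Atp6v1b2, the brain form of the nucleotide-binding B subunit, had 16.97, 17.48 and 16.05 in Acads-/- HF mice, against 18.75, 19.92 and 19.41 in Acads+/+ HF mice, 5.76-fold lower (-2.53 ± 0.35, SE, adjusted p = 0.00045). Atp6v1c2 had 18.36, 18.31 and 17.89 in Acads-/- HF mice, against 15.49, 15.33 and 16.26 in Acads+/+ HF mice, 5.63-fold higher. Removal of the span trend left 5 lower and 3 higher, and so did median scaling. Of 6 sodium and calcium pump genes 4 were lower, among them Atp1b1 (-1.49), Atp1b2 (-1.70) and Atp1b3 (-1.34), the beta subunits of the sodium pump that keeps the neuron polarized. The groups overlapped for Atp1b2, and 2 of the 6 were lower without array A of Acads-/- HF or without array B or C of Acads+/+ HF.

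**Figure D4:**
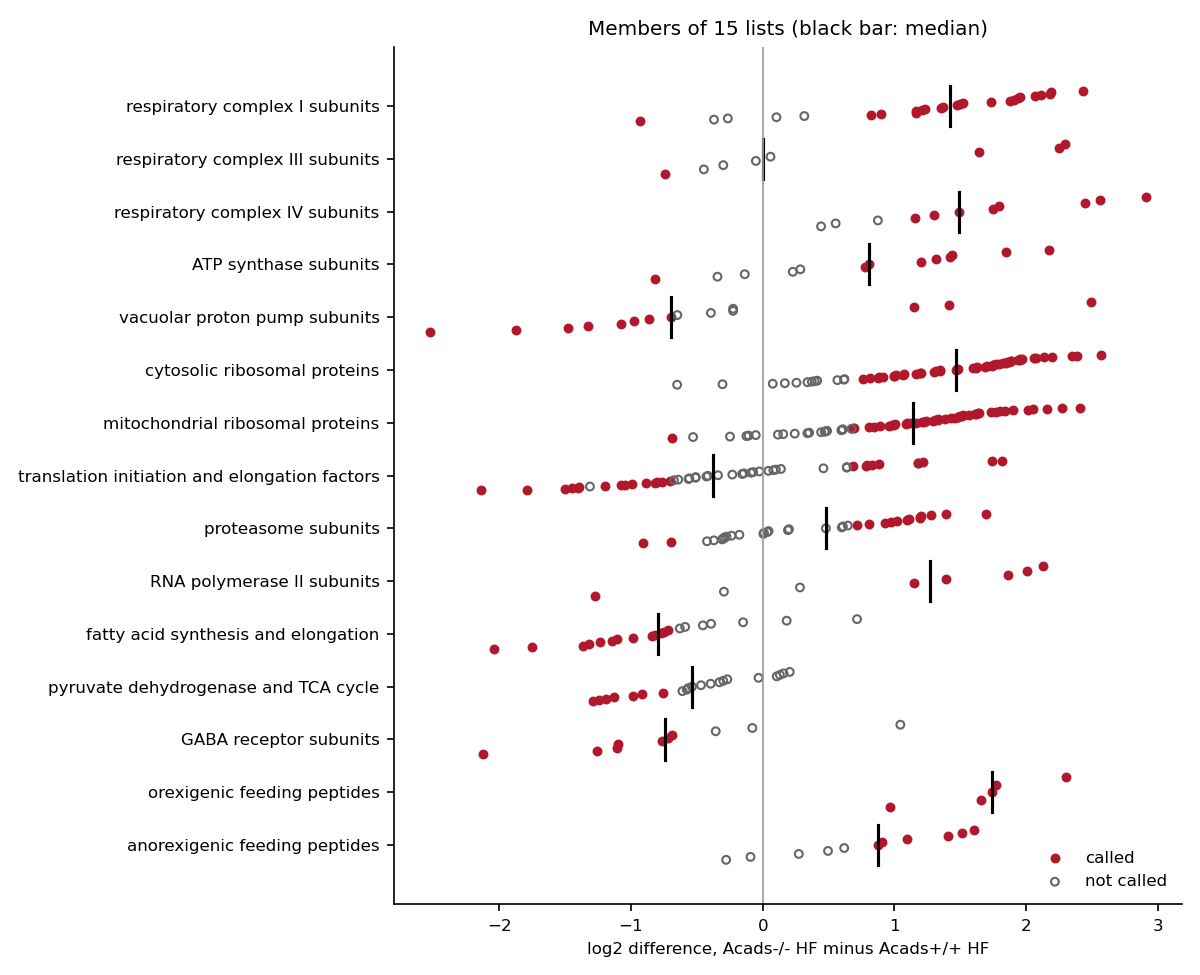
The log2 difference Acads-/- HF minus Acads+/+ HF of each tested member of 15 gene lists; filled red points were called, open points were not, and the black bar is the list median. Complexes I and IV, ATP synthase and the ribosomal proteins lie mostly right of 0 with medians between 0.81 and 1.49, while fatty acid synthesis, the TCA cycle and GABA receptor subunits lie mostly left of it.

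The import of proteins into mitochondria had 7 of 17 genes higher and 2 lower. Tomm7, a small subunit of the outer membrane pore, had 18.75, 18.80 and 18.89 in Acads-/- HF mice, against 16.63, 16.14 and 17.61 in Acads+/+ HF mice, a difference of 2.02 ± 0.29 (SE, adjusted p = 0.00050). Timm8b, Timm10 and Pam16, small factors of the intermembrane space and the inner membrane motor, were 1.88 to 2.09 higher. Hspa9, the matrix chaperone of the same motor, was 1.25 lower. Mitochondrial carriers had none of 25 genes higher and 5 lower, among them the brain uncoupling protein gene Slc25a27 (-1.52).

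Ribosomal proteins made the broadest group. Of 59 tested cytosolic ribosomal protein genes, 47 were higher and none lower, at a median of 1.47, and in 53 the groups did not overlap. Rpl36 had 18.32, 18.13 and 17.98 in Acads-/- HF mice, against 15.32, 15.08 and 16.32 in Acads+/+ HF mice, 5.95-fold higher (2.57 ± 0.26, SE, adjusted p = 0.00015). Rpl35a, Fau and Rps27l were 2.08 to 2.35 higher, while Rpl39l, an extra copy of Rpl39, differed by -0.65 without a call. Ribosomal protein genes have many processed pseudogenes, so a probe may read more than 1 locus. With the span trend removed 38 were higher and 1 lower, at a median of 0.94, and with median scaling 55 were higher and 1 lower.

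Mitochondrial ribosomal proteins, coded in the nucleus and used to translate the respiratory subunits coded in mitochondrial DNA, had 43 of 62 genes higher and 1 lower, at a median of 1.14. Mrpl52 had 17.25, 17.29 and 16.69 in Acads-/- HF mice, against 14.56, 14.22 and 15.23 in Acads+/+ HF mice, 5.31-fold higher (2.41 ± 0.26, SE, adjusted p = 0.00018). Mrpl54, Mrpl23 and Mrpl14 were 2.02 to 2.27 higher. After removal of the span trend 37 were higher and 3 lower, at a median of 0.90.

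The promoters of these groups were searched for motifs, which the choice of genes had not used. The letters AAGATGGC, the core bound by the factor YY1, were found on either strand in 26.1% of 23 complex I promoters, in 18.2% of 55 mitochondrial and 12.2% of 49 cytosolic ribosomal protein promoters, and in 0 of 10 complex IV promoters. The share was 4.58% over the promoters of all tested genes and 2.88% over the 27025 promoters of the table, each 300 bases long. Among all called genes the motif was in 4.68% of the higher and 4.39% of the lower. YY1 was 1 of several motifs searched. The NRF1 letters GCATGCGC were in 14.5% of mitochondrial and 4.08% of cytosolic ribosomal protein promoters. They were in 8.70% of complex I and 10% of complex IV promoters, and in 5.28% over tested genes. CCAAT was in 60% of complex IV, 34.8% of complex I, 38.2% of mitochondrial and 24.5% of cytosolic ribosomal protein promoters, against 38.7% over tested genes. The letters CCGGAAG of ETS factors were in 40.8% of 49 cytosolic and 32.7% of 55 mitochondrial ribosomal protein promoters, in 13.0% of 23 complex I and 20% of 10 complex IV promoters, and in 17.0% over tested genes.

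The windows around the YY1 letters are given from RefSeq (GRCm38.p6) for the 11 genes of complex I and the mitochondrial ribosome whose match had bases of the stretch on both sides, called and not called, so that the place of the motif can be compared. Each is 28 bases long, 5′ to 3′ on the strand of the gene, with the motif in capitals, as AAGATGGC or, on the other strand, GCCATCTT. They are Ndufa3 (chr7:3617385-3617412, plus strand, 2.18 higher), Ndufs7 (chr10:80249463-80249490, plus, 1.21 higher), Ndufa9 (chr6:126849098-126849125, minus, not called at 0.10), Mrpl42 (chr10:95501905-95501932, minus, 1.80 higher), Mrpl36 (chr13:73330969-73330996, plus, 1.63 higher), Mrps12 (chr7:28742003-28742030, minus, 1.49 higher), Mrpl35 (chr6:71823744-71823771, minus, 1.21 higher), Mrpl37 (chr4:107066823-107066850, minus, not called at 0.12), Mrps11 (chr7:78783014-78783041, plus, 1.29 higher), Mrps7 (chr11:115604148-115604175, plus, 0.85 higher) and Mrpl49 (chr19:6057722-6057749, minus, not called at 0.44).
Ndufa3: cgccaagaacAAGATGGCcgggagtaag
Ndufs7: ggccgaggccAAGATGGCggcgctggcg
Ndufa9: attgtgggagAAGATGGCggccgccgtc
Mrpl42: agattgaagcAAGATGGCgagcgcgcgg
Mrpl36: gtgaccttacGCCATCTTtcttcctggc
Mrps12: catggacgcaGCCATCTTggagtggaaa
Mrpl35: ggcaggctgcAAGATGGCggcttccatc
Mrpl37: tgcacgggcaAAGATGGCggcgtccagg
Mrps11: tacgggcgccGCCATCTTtctgtcttcc
Mrps7: gacagcggccAAGATGGCtgcccccgcg
Mrpl49: ttgaggcgccAAGATGGCagcagcggtg
In 8 of the 11, Ndufa9, Mrpl37 and Mrpl49 among them, the letters began 17 to 30 bases after the start, on the strand of the gene. In Mrpl36, Mrps11 and Mrps12 they lay at positions -30, -107 and -199 from it, on the other strand.

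Of 48 initiation and elongation factors 10 were higher and 15 lower, at a median of -0.38. Eef2, the elongation factor that moves the ribosome along, had 18.27, 18.49 and 17.94 in Acads-/- HF mice, against 19.26, 20.04 and 19.75 in Acads+/+ HF mice, a difference of -1.45 ± 0.21 (SE, adjusted p = 0.00052). Eef2 spans 5.88 kb, so it went against the trend with span, and with the trend removed it was 1.66 lower. Eif2ak2, the kinase PKR that stops initiation, had 13.62, 13.63 and 13.02 in Acads-/- HF mice, against 11.95, 11.00 and 11.86 in Acads+/+ HF mice, 3.52-fold higher, and it spans 32.1 kb.

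Of 8 RNA polymerase II subunit genes 5 were higher and 1 lower, with Polr2j at 16.66, 16.36 and 16.25 in Acads-/- HF mice, against 14.81, 13.63 and 14.42 in Acads+/+ HF mice (2.13 ± 0.25, SE, adjusted p = 0.00022). Polr2m, at 7.55 kb, was 1.27 lower. Of 47 spliceosome genes 16 were higher and 7 lower, at a median of -0.15, with the Sm and LSm ring proteins Snrpg, Snrpd2 and Lsm7 between 2.23 and 2.29 and the hnRNP gene Hnrnpm at -0.77. Of 33 proteasome genes 13 were higher and 2 lower, at a median of 0.48, and the subunit gene Psmb3 was 1.69 higher. Ubiquitin-specific proteases, large enzymes that remove ubiquitin, had 12 of 28 genes lower and none higher (median -0.64). With the span trend removed 7 were lower, at a median of -0.29, with median scaling 16 were, and with 1 array left out 8 (without array B of Acads+/+ HF) to 20 (without array A of Acads+/+ HF) were. Ubiquitin-conjugating enzymes had 5 of 25 higher and 3 lower, and 6 higher and 1 lower with the trend removed. Chromatin remodelling enzymes had 6 of 18 lower and none higher, among them the DNA methyltransferase gene Dnmt3a (-1.71), and 3 were lower with the trend removed.

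Antioxidant and glutathione enzymes were mixed, with 10 of 27 genes higher and 4 lower, or 8 higher and 2 lower with the span trend removed. Cat, the peroxisomal catalase, had 11.36, 12.09 and 11.64 in Acads-/- HF mice, against 13.30, 13.92 and 13.48 in Acads+/+ HF mice, a difference of -1.87 ± 0.22 (SE, adjusted p = 0.00021). Sod1, the cytosolic superoxide dismutase, had 18.59, 18.45 and 18.37 in Acads-/- HF mice, against 17.59, 16.82 and 17.45 in Acads+/+ HF mice, 1.18 higher (SE 0.19, adjusted p = 0.00080). Of 16 genes of the unfolded protein response 5 were lower, 2 were higher and 9 were not called, at a median of -0.17. The chaperones Hspa5 (-0.83), Canx (-1.03), Pdia6 (-0.92) and Hyou1 (-1.91) were among the lower, and Ddit3, the stress-induced transcription factor CHOP, was 1.12 higher.

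Feeding peptides listed here as raising food intake were higher, all 5 of 5 tested. Npy, neuropeptide Y, had 17.28, 17.32 and 17.28 in Acads-/- HF mice, against 15.98, 14.72 and 15.87 in Acads+/+ HF mice, 3.41-fold higher (1.77 ± 0.27, SE, adjusted p = 0.00073). Hcrt, which encodes the orexins, had 13.44, 13.68 and 12.93 in Acads-/- HF mice, against 11.25, 11.15 and 12.44 in Acads+/+ HF mice (1.74 ± 0.33, SE, adjusted p = 0.0019). For both genes all 3 Acads+/+ HF values lay below every LF value, and the Acads-/- HF values lay among or near the LF values. Gal, galanin, had 14.25, 13.81 and 13.83 in Acads-/- HF mice, against 12.79, 11.80 and 12.32 in Acads+/+ HF mice, 1.66 higher (SE 0.23, adjusted p = 0.00046). Npb and Pnoc, the precursors of neuropeptide B and nociceptin, were 2.30 and 0.96 higher. After removal of the span trend 3 of the 5 were called, and Hcrt, at 0.89, was not.

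Of 11 peptides listed as curbing food intake 6 were higher and none lower, at a median of 0.88, and 3 were higher without array B of Acads+/+ HF. Cartpt, whose product CART reduces feeding, had 15.15, 15.42 and 15.35 in Acads-/- HF mice, against 14.23, 13.13 and 13.74 in Acads+/+ HF mice, 3.05-fold higher (1.61 ± 0.25, SE, adjusted p = 0.00071). Nts, Nmb, Cck and Grp, the precursors of neurotensin, neuromedin B, cholecystokinin and gastrin-releasing peptide, were 0.88 to 1.40 higher. Pomc, the precursor of the melanocortins, had 9.24, 10.25 and 8.35 in Acads-/- HF mice, against 8.78, 8.50 and 11.40 in Acads+/+ HF mice, and was not called (adjusted p = 0.93). On LF diet Pomc reached 16.39 on 1 Acads-/- array and 17.15 on 1 Acads+/+ array. The summed signal of all 7 pituitary markers with a probe, untested ones included, reached 1520860 in Acads-/- LF and 2198600 in Acads+/+ LF mice. It ran from 5673 to 10080 on the Acads-/- HF arrays and from 5866 to 6890 on the Acads+/+ HF arrays.

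Of 21 other neuropeptide precursors 7 were higher and 4 lower, at a median of 0.19. After removal of the span trend 4 were higher and 6 lower, at a median of -0.05. Oxt, oxytocin, had 16.34, 16.65 and 15.87 in Acads-/- HF mice, against 14.72, 13.85 and 14.62 in Acads+/+ HF mice, 3.71-fold higher (1.89 ± 0.25, SE, adjusted p = 0.00037). Avp, vasopressin, was 1.77 higher. Scg3 and Chgb, granins of the secretory granule, were 0.93 and 0.87 lower on the log2 scale. The summed signal of all 8 hypothalamic markers with a probe, untested ones included, ran from 85068 to 133667 on the Acads-/- HF arrays. On the Acads+/+ HF arrays it ran from 23557 to 40780. Of the 5 tested markers 3 were called higher. The part of the amount of hypothalamus in the sample was not tested.

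Of 18 receptors for these peptides and for leptin 7 were lower and 1 higher. Removal of the span trend gave 6 lower and 4 higher, and without array B of Acads+/+ HF 3 were lower. Npy1r, a receptor for neuropeptide Y, had 10.49, 9.54 and 11.31 in Acads-/- HF mice, against 11.54, 11.71 and 11.62 in Acads+/+ HF mice (-1.17 ± 0.33, SE, adjusted p = 0.015). Mchr1 and Crhr1, receptors for melanin-concentrating hormone and corticotropin-releasing hormone, were 0.74 and 0.77 lower, and Ntrk2, the receptor for BDNF, was 1.21 lower.

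AMPK is a kinase of 3 kinds of subunit that is switched on when ATP falls. Of 11 tested genes for its subunits and upstream kinases 4 were lower and none higher, at a median of -0.45, and 1 was lower with the span trend removed. Cab39, the scaffold that activates the upstream kinase LKB1, had 14.33, 14.34 and 14.77 in Acads-/- HF mice, against 15.37, 16.19 and 15.54 in Acads+/+ HF mice (-1.22 ± 0.23, SE, adjusted p = 0.0018). Its pseudokinase partner Strada (-0.99), the kinase gene Map3k7 (-1.08) and the gamma subunit gene Prkag2 (-0.79) were lower as well. Prkag1, another gamma subunit gene, had 15.84, 15.65 and 15.95 in Acads-/- HF mice, against 15.41, 15.58 and 15.47 in Acads+/+ HF mice, and was not called at 0.32.

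The study drew up its own table of genes tied to AMPK signalling from these samples, so its direction is no independent evidence. Of its 16 tested genes 1 was higher and 11 lower. Prkar2b, a regulatory subunit of protein kinase A, had 11.73, 11.83 and 12.03 in Acads-/- HF mice, against 12.58, 12.78 and 13.00 in Acads+/+ HF mice (-0.92 ± 0.20, SE, adjusted p = 0.0037). The anchoring proteins Akap5, Akap6 and Akap8 were 0.86 to 1.33 lower, Creb5 and Arpp21 were each 0.97 lower, and Rapgef4, the cAMP sensor Epac2, was 0.88 lower. Stk32c, a serine/threonine kinase gene, was 1.50 higher. Of the study's 19 feeding genes, chosen in the same way, 8 were higher and 7 lower, and of its 6 RT-qPCR genes 2 were higher and 1 lower, among them the uncoupling protein gene Ucp3 with 11.29, 11.96 and 11.34 in Acads-/- HF mice, against 9.83, 9.31 and 9.07 in Acads+/+ HF mice.

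Most called genes of cAMP signalling were lower. Of 13 genes for protein kinase A, its anchors and inhibitors, 5 were lower and 1 higher, with the inhibitor gene Pkia at -1.62, and of the 12 with a span 3 were lower and 3 higher with the span trend removed. Of 14 cyclases and phosphodiesterases 7 were lower and 1 higher, with Pde2a at -1.14 and Adcy3 at 1.14, and 1 was lower with the trend removed. Of 21 heterotrimeric G protein genes 5 were higher, 5 lower and 11 not called, at a median of -0.56. With the trend removed 3 were lower, and 9 were without array A of Acads+/+ HF and 8 without array C of Acads-/- HF. The 5 higher genes encode gamma subunits. Gng13 had 17.83, 17.85 and 17.53 in Acads-/- HF mice against 15.11, 14.78 and 16.01 in Acads+/+ HF mice (2.44 ± 0.30, SE, adjusted p = 0.00025), and Gng5, Gng8, Gng11 and Gng12 were 1.48 to 1.97 higher, while the gamma genes Gng2, Gng3, Gng4, Gng7 and Gng10 were not called. The 5 lower genes encode alpha subunits, among them Gnao1 (-1.63), the most abundant in brain, and Gna11, Gna13 and Gnaz were not called.

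Transcripts of inhibitory transmission were mostly lower. Of 10 GABA receptor subunit genes 7 were lower and none higher, at a median of -0.74. Gabbr1, which binds GABA in the metabotropic GABA-B receptor, had 12.24, 12.40 and 11.70 in Acads-/- HF mice, against 14.11, 14.20 and 14.41 in Acads+/+ HF mice, 4.37-fold lower (-2.13 ± 0.20, SE, adjusted p = 0.00012). Gabra2, Gabra3, Gabra5, Gabra6 and Gabrd, subunits of the GABA-A chloride channel, were 0.69 to 1.26 lower. Set against the LF mean, the median of these 10 genes was -0.33, -0.51 and -0.03 in Acads-/- HF mice, while Acads+/+ HF mice had 0.33, 0.63 and 0.56, so arrays of both HF groups lay away from LF levels, on opposite sides. Gabrr2 differed by 1.05 without a call, with 1 Acads-/- array at 13.40 and the others near 10.78. With the span trend removed 4 of the 10 were lower, at a median of -0.42.

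Genes that make, load and traffic GABA had 7 of 12 lower and 1 higher. The count of lower genes was 3 with the span trend removed and 4 with median scaling. Gad1, which makes GABA from glutamate, had 18.34, 18.29 and 18.22 in Acads-/- HF mice, against 19.04, 19.55 and 19.32 in Acads+/+ HF mice (-1.02 ± 0.18, SE, adjusted p = 0.0013). The vesicular transporter gene Slc32a1 was 1.01 lower, and Abat, which breaks GABA down, was 1.00 lower. Aldh5a1, the next enzyme of that breakdown, was 1.31 higher.

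Excitatory and electrical genes had smaller called shares. Of 13 glutamate receptor genes 4 were lower and 2 higher, with the AMPA receptor genes Gria1 and Gria2 at -1.28 and -1.31 and the metabotropic receptor gene Grm3 at 1.50. Glud1, glutamate dehydrogenase, was 1.65 lower. Of 21 potassium channel genes 7 were lower and none higher, with Kcna2 at -1.89, and with the span trend removed 4 were lower and 2 higher. Of 17 sodium and calcium channel genes 3 were lower, Scn8a, Cacna1g and Cacng4, between -1.62 and -1.04, and 1 was lower and 1 higher with the trend removed.

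Of 27 synaptic vesicle genes 12 were lower and 4 higher. Syt11, a member of the synaptotagmin family, had 16.36, 16.72 and 16.29 in Acads-/- HF mice, against 18.11, 19.27 and 18.55 in Acads+/+ HF mice, 4.55-fold lower (-2.19 ± 0.25, SE, adjusted p = 0.00020). Pclo, a scaffold of the active zone, Cplx1, which clamps fusion, and Vamp1, a vesicle SNARE, were 1.50 to 1.70 lower. Syt1, the calcium sensor of fast release, was 0.98 higher, and it spans 513 kb, so it went against the trend with span. Of 23 kinesin and dynein motor genes 5 were higher and 9 lower, or 5 and 5 with the trend removed, with the heavy chain gene Dync1h1 at -1.36 and the light chain genes Dynlt1b, Dynlrb1 and Dynlrb2 between 1.28 and 1.78.

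Of 13 core clock genes 5 were lower and none higher, with Tef, Nr1d2, Npas2 and Bhlhe40 between -1.16 and -1.03. Without array B of Acads+/+ HF 2 were lower, and 2 were with the span trend removed. Of 20 immediate early genes 1 was higher and 2 lower, and the effect differed between diets for none of the 20. Of 101 olfactory receptor genes 23 were higher and 1 lower, at a median of 0.55, and the median was 0.35 on LF diet. Removal of the span trend turned the olfactory receptors round, with 7 higher and 21 lower at a median of -0.38, so no direction can be given for them.

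**Figure D5:**
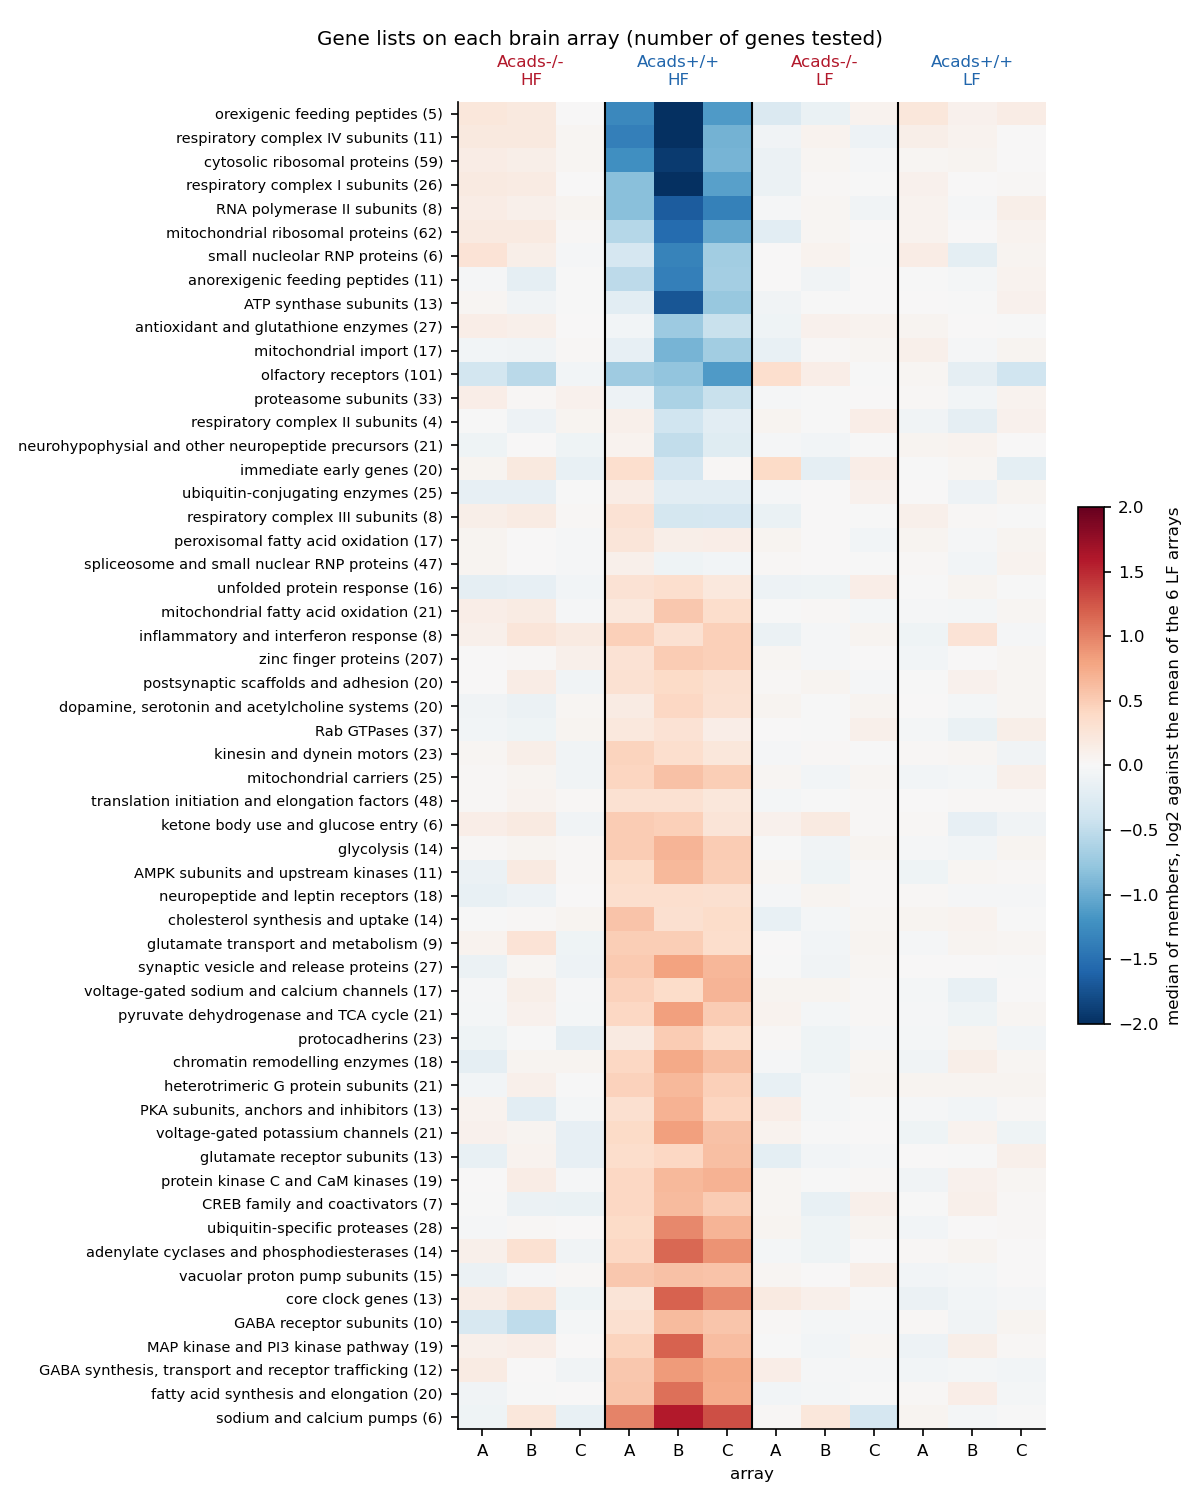
Each row is a gene list and each column 1 of the 12 brain arrays, coloured by the median log2 signal of the list against the mean of the 6 LF arrays on a scale from -2 to 2, with rows ordered by the HF difference. The Acads+/+ HF columns carry nearly all of the colour, in both directions, and array B of that group is the strongest in many lists.

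Markers of brain cell types were checked on the same arrays. All 9 neuronal markers were tested and none lay at the floor on all 6 HF arrays; 1 was higher and 4 were lower in Acads-/- HF mice, and their summed signal ran from 1682520 to 1823770 on the Acads-/- HF arrays and from 2370410 to 2841430 on the Acads+/+ HF arrays. Of 5 microglial markers 4 were higher and 1 lower. Aif1, the marker IBA1, had 13.19, 12.86 and 13.45 in Acads-/- HF mice, against 12.19, 10.92 and 11.68 in Acads+/+ HF mice (1.57 ± 0.30, SE, adjusted p = 0.0020), and C1qb was 1.24 higher, while P2ry12, a receptor of resting microglia, was 0.79 lower. P2ry12 was not called with the span trend removed.

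Of 6 oligodendrocyte markers 2 were lower. Mbp, myelin basic protein, had 17.87, 17.80 and 17.16 in Acads-/- HF mice, against 18.52, 19.56 and 19.19 in Acads+/+ HF mice (-1.48 ± 0.26, SE, adjusted p = 0.0015), and the summed signal of the 6 ran from 214183 to 329624 on the Acads-/- HF arrays and from 477055 to 888191 on the Acads+/+ HF arrays. Of 5 markers of red blood cells and platelets 2 were higher. Hba-a1, an alpha globin gene, had 18.62, 18.53 and 18.51 in Acads-/- HF mice, against 16.89, 16.05 and 16.97 in Acads+/+ HF mice, 3.77-fold higher. The summed signal of all 7 such markers with a probe, untested ones included, ran from 392151 to 420524 on the Acads-/- HF arrays. On the Acads+/+ HF arrays it ran from 80029 to 142268. The sums for neurons, oligodendrocytes and striatum were lower in Acads-/- HF mice, without overlap between the HF groups. Those for microglia, blood, hypothalamus, ependyma, choroid plexus and muscle were higher, also without overlap, and those of the other 7 lists overlapped. Of 7 tested choroid plexus markers 1 was called higher and 1 lower. The part of cell composition in the gene groups above was not tested.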

How the data were processed

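RNA from whole brain was hybridized to 1-colour arrays by the authors, 1 array per mouse. The deposited brain table held each probe's signal intensity, not normalized, and the value table held the authors' log2 values of the same arrays. The intensity columns name strain and diet but carry no replicate number. Intensities of the 12 brain arrays were quantile normalized, raised to a floor at the 5th percentile (a signal of 235) and taken to log2. Of 33012 probes, the 16506 above the median mean signal were tested with limma 3.58.1 (R 4.3.3, with tables made in Python 3.11.15 and pandas 2.3.3) in 1 model of the 4 groups, with Benjamini-Hochberg adjustment. The median residual SD of a tested probe was 0.271, and 3 arrays per group limit the precision. P-values and SEs measure the spread between arrays of separate mice, pooled over the 4 groups. The median SD of a tested probe was 0.233 in Acads-/- HF mice and 0.285 in Acads+/+ HF mice. It was smaller on LF diet, at 0.168 in Acads-/- and 0.182 in Acads+/+ mice. The fit was tested on simulated data.

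Of all probes 14411 had 1 gene symbol, 247 had several and 18354 were not listed, and 14402 of the single symbols matched RefSeq by Entrez ID. Where a gene had several probes the one of highest mean signal was used, for 13840 genes. A further 5 genes were named by probe IDs that the study gives. The study names 54 genes tied to feeding, AMPK and RT-qPCR, of which 44 were found and 43 tested. The genes named in the text were the 15 largest increases and 15 largest decreases among called genes whose groups did not overlap and lay above the floor, the genes the study names, up to 6 members of each list by adjusted p with the first that moved against the majority, genes called on both diets, and cell type markers. Genes named beyond these, such as those whose promoters are printed, were chosen after their values were seen. The members and lists were chosen with earlier results of these data known.

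The alternatives were no filter, only the brightest probes, median scaling, an offset, the authors' log2 values, 2-group fits, the methods' t-test, removal of the span trend, a replicate block and leaving out each array. RT-qPCR, western blots, acylcarnitines, detection flags and protein length were not used here.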

Additional observations from a re-analysis of the deposited data

Results flagged for a closer look

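The genotype effect in brain differed between the HF and LF diets for 3752 probes by the interaction term of the limma fit. Among the genes with the largest HF differences, the effect (Acads-/- minus Acads+/+) was higher on HF than on LF diet for Ly6g6c by 3.74 on the log2 scale, Cox8b by 3.15, Dpm3 by 3.08, S100a5 by 3.07, Cox7a1 by 3.02, Bola2 by 2.99, S100a13 by 2.88, Slc7a9 by 2.69, Rpl36 by 2.65, Nop10 by 2.65, Hpdl by 2.34 and Hbq1a by 2.21. It was lower on HF diet for F2r (-3.97), Stk38 (-3.68), Antxr2 (-3.30), Ap5m1 (-3.22), Galnt11 (-3.21), Abca1 (-3.03), Atp6v1b2 (-2.63), Ago2 (-2.55), Arhgap35 (-2.39), Frmd8 (-2.35), Arel1 (-2.33), Abcb8 (-2.23) and Kpna1 (-1.88). For F2r, a thrombin receptor, the effect had opposite signs on the diets, with -2.44 on HF and 1.54 on LF diet. The LF value was not called.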

How the results depend on the processing

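Of 16506 probes 5758 were called on HF diet. The count was 3308 among the 8253 brightest probes, 69 by the methods' t-test after Benjamini-Hochberg adjustment, 3266 among the 9025 probes with a genomic span (an alternative chosen after seeing the data) and 2571 of these with the span trend removed. Leaving out 1 array gave 4271 (without Acads+/+ HF array B) to 6912 (without Acads+/+ HF array A). The other alternatives gave 4621, in the fit on the 6 HF arrays alone, to 5964, with median scaling. Median scaling moved the median of all probes to -0.20, against -0.13, and 44.0% of calls were higher against 50.2%. Among probes with a span, 54.8% of calls were higher with the trend removed and 41.6% with it kept. On LF diet the count of 3 was 1 among the brightest probes and 180 by the methods' t-test without adjustment, and 2 to 3 with 1 array left out. The count of 3752 probes whose effect differed between diets was 1862 without the filter on low signal and 2388 (without Acads-/- LF array A) to 5565 (without Acads+/+ HF array A) with 1 array left out; without Acads+/+ LF array A it was 2434. In liver 0 to 2 probes were called with 1 array left out.

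The replicate numbers of the labels gave correlations of 0.12, 0.09 and -0.12 between same-numbered HF arrays. Between HF arrays of different numbers they ran from -0.17 to 0.11. LF arrays were not compared in this way, and whether the numbers pair the samples was not settled. With the replicate block on the authors' log2 values 5808 probes were called on HF diet, 3 on LF diet and 3613 for the difference between diets.

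Median scaling turned the sign of Nlgn2 (0.044), Rab11b (0.13) and Tubb3 (0.021), and of the single-gene and list values 59 were no longer past the threshold, 28 came past it and 29 list medians moved. With the span trend removed these numbers were 93, 20 and 52. The causes were not tested. Probes below the median mean signal were not tested, so dim genes have no call.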
